A study of Mus musculus with 64 samples.

Results

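The perilipins and the CIDE proteins are the 2 families of structural proteins that coat lipid droplets, and all 8 of their mouse genes were described here across the livers of 4 groups of mice. The members, Plin1, Plin2, Plin3, Plin4, Plin5, Cidea, Cideb and Cidec, were taken by gene name, 8 of the 53008 names in the count table. RNA was sequenced from liver after 16 weeks on a high-fat diet (HFD) or on chow. The groups were HuMgat2 mice on HFD, HuMgat2 mice on chow, wild-type (WT) mice on HFD and WT mice on chow, with 4 libraries in each of the 4 groups and 16 libraries in all. HuMgat2 mice are humanized for monoacylglycerol acyltransferase 2: they express human MOGAT2, while WT mice carry the mouse gene Mogat2. The enzyme joins a fatty acid to monoacylglycerol, a step of triglyceride synthesis best known from the intestine. The labels give no sex, age, promoter or time of collection, and they number the libraries without saying that each is 1 animal, so the p-values measure the spread between these libraries.

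A lipid droplet is a core of triglyceride and cholesteryl ester inside a single layer of phospholipid, and the proteins on that layer decide how readily lipases reach the core. Perilipins are the coat. Plin1 is the perilipin of adipocytes, Plin2 is the main coat of hepatocyte droplets, Plin3 is a soluble protein that moves onto newly formed droplets, Plin4 binds droplets through a long run of repeats and is best known from adipocytes and muscle, and Plin5 belongs to oxidative tissues, where it brings droplets close to mitochondria. CIDE proteins sit where droplets touch and pass lipid from the smaller to the larger one. Cidec is the CIDE protein of white adipocytes and Cidea that of brown adipocytes, while Cideb is the one normally made by hepatocytes, where it also serves the loading of lipoproteins with lipid. Cidea and Cidec are known for being switched on in fatty mouse liver, where Cidec is a target of the nuclear receptor PPARγ.

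On the mouse assembly GRCm39 that the count table uses, 3 of the perilipin genes share chromosome 17. Plin4 (ENSMUSG00000002831) spans 56407591 to 56416803 and Plin5 (ENSMUSG00000011305) spans 56418601 to 56424596. They lie side by side on the minus strand, 1797 bases apart with 0 genes between them, while Plin3 (ENSMUSG00000024197, 56584476 to 56597511) lies 160 kb from Plin5 with 10 genes between. Plin1 (ENSMUSG00000030546) is on chromosome 7 from 79369966 to 79382651, and Plin2 (ENSMUSG00000028494) on chromosome 4 from 86566623 to 86588297.

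The upstream sequence is shown for Plin2, Plin3 and Plin4, the 3 perilipins that were higher on HFD than on chow in HuMgat2 mice and higher in HuMgat2 than in WT mice on HFD. Each line gives the 250 bases before the annotated start on the gene's own strand, from RefSeq on the older build GRCm38.p6, at chr4:86670060-86670309, chr17:56290512-56290761 and chr17:56109783-56110032, all on the minus strand. Capitals mark AGGTCA on either strand, which is the half-site of nuclear receptors such as the PPARs, the GC box GGGCGG on either strand, and, over all its bases, a pair of AGGTCA half-sites with 1 base between that differs from the perfect pair at no more than 2 bases. In Plin2 the capitals are 1 such pair, which contains an exact AGGTCA on the minus strand, and in Plin3 they are 3 GC boxes, of which those nearest the start overlap.
Plin2: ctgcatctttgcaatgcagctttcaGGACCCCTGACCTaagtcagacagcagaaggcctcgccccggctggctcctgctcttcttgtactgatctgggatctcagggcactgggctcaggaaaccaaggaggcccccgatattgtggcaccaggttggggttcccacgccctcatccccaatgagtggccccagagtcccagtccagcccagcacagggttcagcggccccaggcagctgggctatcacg
Plin3: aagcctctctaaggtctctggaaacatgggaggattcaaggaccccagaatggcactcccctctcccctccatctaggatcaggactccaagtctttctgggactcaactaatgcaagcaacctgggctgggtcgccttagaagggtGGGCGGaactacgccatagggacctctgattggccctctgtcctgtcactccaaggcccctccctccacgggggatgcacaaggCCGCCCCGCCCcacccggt
Plin4: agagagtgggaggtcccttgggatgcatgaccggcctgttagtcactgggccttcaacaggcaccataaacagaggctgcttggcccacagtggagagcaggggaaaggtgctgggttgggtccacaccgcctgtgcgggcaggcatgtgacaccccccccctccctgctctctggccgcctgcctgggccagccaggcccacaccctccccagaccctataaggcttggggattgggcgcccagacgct

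Of the 32851 RefSeq windows of this length, 14.0% hold AGGTCA, 3.24% hold the spaced pair, 32.7% hold GGGCGG and 6.02% hold the E-box CACGTG. Windows of 7 of the 8 members were examined, 9 windows in all. There was none for Cidea, because windows on chromosome 18 were left out for the members. AGGTCA was in 2 of the 9 windows (that of Plin2 and 1 of the 2 for Plin5), the spaced pair in 1, GGGCGG in 4 and CACGTG in 0. The windows of Plin1, Plin4 and Cidec held none of these motifs. The CIDE genes lie apart from each other and from the perilipins on GRCm39: Cidea (ENSMUSG00000024526) is on chromosome 18 from 67476674 to 67500855, Cideb (ENSMUSG00000022219) on chromosome 14 from 55991507 to 55995915, and Cidec (ENSMUSG00000030278) on chromosome 6 from 113401595 to 113412721.

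Counts assigned to genes ranged from 12.4 to 25.8 M per library, with 12.4 M in WT HFD library 4 and at least 19.4 M in each of the other 15. Mogat2 had 0 to 2 counts per library in HuMgat2 mice on HFD, 0 to 1 in HuMgat2 mice on chow, 2 to 12 in WT mice on HFD and 0 to 2 in WT mice on chow, too few to test. The level of human MOGAT2 was not analysed here. One library, the WT HFD library 4, differed from the rest. The hepatocyte product albumin took 0.85% of its counts, against 3.26% to 6.02% in the other 15 libraries, and the library had the lowest level of its group for 7 of the 7 tested members. Where leaving it out changed the call of a member, both results are given, as they are for some other results. HuMgat2 chow library 13 likewise was the lowest of its group for 7 of 7, and HuMgat2 HFD library 9 for 6 of 7. All groups held the hepatocyte genes of the labelled tissue, with the summed level of 8 markers between 44355 CPM in WT HFD library 4 and 102297 CPM.

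Levels are given as CPM, the counts of a gene relative to the library total on the usual fixed scale, after TMM, which corrects the library totals for differences in composition. Levels of different genes are compared only after division by transcript length, in CPM per kb. On that scale, with each gene divided by its full length, Plin2 had the highest mean in every group, at 139 ± 18.5 CPM per kb in HuMgat2 mice on HFD, 70.7 ± 15.9 in HuMgat2 mice on chow, 69.9 ± 19.3 in WT mice on HFD and 65.2 ± 9.27 in WT mice on chow (SD, n = 4 each). In each group its lowest library lay above the highest library of the next gene, though where that gene was Cideb this depends on the length used for it. The order behind Plin2 differed between the groups. In HuMgat2 mice on HFD it ran Plin4 (22.6 ± 7.74 CPM per kb), Cidec (21.5 ± 8.85), Cideb (17.5 ± 1.66), Cidea (15.1 ± 8.30), Plin3 (11.8 ± 1.51) and Plin5 (9.97 ± 1.51), and none of these neighbours were apart beyond their spread. In HuMgat2 mice on chow Cideb was the second gene (13.5 ± 2.02 CPM per kb), clear of Plin5 (7.34 ± 1.40) and Plin3 (6.92 ± 1.17), which overlapped each other. Plin4 (2.16 ± 1.09) and Cidec (1.01 ± 0.289) stood clearly below Plin3 and overlapped each other, and Cidea (0.0345 ± 0.0456) was below Cidec in every library.

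In WT mice Cideb came after Plin2 on both diets, while the genes behind it changed places. On HFD, Cideb (15.2 ± 1.48 CPM per kb), Cidec (10.4 ± 7.78), Plin3 (8.37 ± 0.547), Plin5 (6.96 ± 1.16) and Plin4 (6.61 ± 2.93) formed a row of overlapping neighbours, and Cidea came after them at 0.855 ± 1.01. On chow, Cideb (13.4 ± 1.33) was clear of Plin5 (8.35 ± 1.42), Plin3 (7.96 ± 0.575) and Plin4 (5.95 ± 1.41), which overlapped. Cidec (2.12 ± 0.446) was then clear of Plin4, and Cidea (0.0840 ± 0.0891) of Cidec. Plin1 was last in all groups, and it overlapped Cidea in each group but HuMgat2 mice on HFD. The rank of Cideb on this scale is uncertain, because 1136 of its 1488 exon bases, 76.3%, also belong to Nop9 on the other strand. Counting took no account of strand and gave no read to 2 genes at once, which leaves mainly the 352 unshared bases to collect counts. Divided by those bases alone, Cideb read 74.1 ± 7.03 CPM per kb in HuMgat2 mice on HFD, 57.0 ± 8.55 in HuMgat2 mice on chow, 64.3 ± 6.27 in WT mice on HFD and 56.8 ± 5.64 in WT mice on chow (SD, n = 4 each). It was then second to Plin2 by its mean in all 4 groups, above every library of the other 6 members, and it overlapped Plin2 in each group but HuMgat2 mice on HFD.

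**Figure D1:**
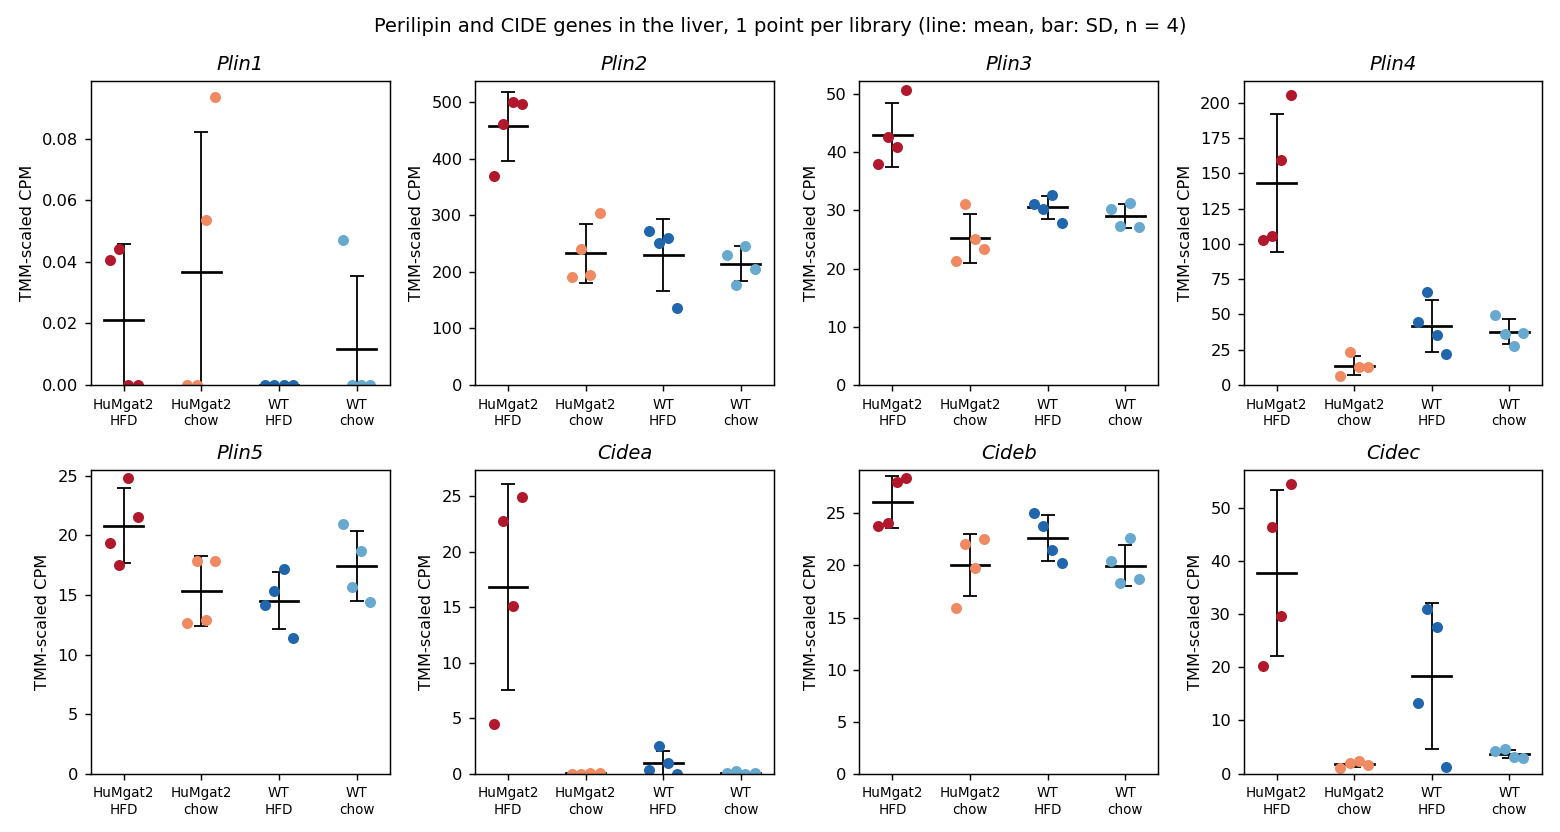
Levels of the 8 perilipin and CIDE genes in TMM-scaled CPM (vertical axes, linear from 0, a scale of its own for each gene) in the 4 groups, with 1 point per library, a line at the mean and a bar of 1 SD that is cut at 0 where it would go below. The 4 HuMgat2 HFD libraries lie above all libraries of the other groups for Plin2, Plin3, Plin4 and Cidea, and Plin1 stays at or below 0.0935 CPM everywhere.

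The first comparison asked which of these genes differed with diet in HuMgat2 livers. Of the 7 members tested, 6 rose on HFD (Plin2, Plin3, Plin4, Cidea, Cideb and Cidec) and 0 fell, and Plin5 was not called. Across all 17318 genes tested with edgeR at an adjusted p below 0.05, 14.0% were called and 7.56% were called higher. All 4 HFD libraries lay above all 4 chow libraries for the same 6 members, where 21.0% of all tested genes had groups without overlap. The median log2 change of the 7 members was 0.97, against -0.01 over all tested genes. Leaving out WT HFD library 4, which belongs to neither group compared but enters the fit, gave 7 calls. Calls over all genes rose as well, to 3394 of 17642 from 2419 of 17318. As with any whole-tissue measurement, more cells of a type and more RNA per cell cannot be told apart.

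In WT livers Cidea and Cidec, 2 of the 7, were called higher on the same diet, and 0 were called lower. Over all tested genes 15.1% were called and 8.37% called higher. Neither gene, and none of the other members, had groups that stood apart in every library, where 18.2% of all tested genes did. The median log2 change of the members was 0.16, against 0.03 over all tested genes. Again 2 were called without WT HFD library 4, where 2593 of 17642 genes were called. With only the WT groups in the fit 0 were called. There Cidea did not pass the filter on low counts, and Cidec missed the threshold (edgeR, adjusted p = 0.0565).

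Whether the diet changes differed between the genotypes was tested directly as the diet by genotype interaction. It was called for Plin3 and Plin4, 2 of the 7 members, both with the larger diet change in HuMgat2 mice, where 4.87% of all tested genes were called and 2.61% in that direction. The other 5 members had estimates of the same sign that did not pass the test. Hence the calls of Plin2 and Cideb in HuMgat2 mice alone do not show that their diet change differed from that in WT mice. DESeq2 called 4 members (Plin2, Plin3, Plin4 and Cidea), and edgeR without WT HFD library 4 called 3 (Plin3, Plin4 and Cidec). Over all genes these settings called 1240 of 17318 and 1129 of 17642, against 844 of 17318 in the main fit.

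Between the genotypes on HFD, 5 of the 7 members were higher in HuMgat2 than in WT livers (Plin2, Plin3, Plin4, Plin5 and Cidea) and 0 were lower. Over all tested genes 14.8% were called and 7.21% called higher. The groups did not overlap for these 5 members, as for 21.2% of all tested genes, and the median log2 difference was 0.99 over the members and -0.04 over all tested genes. The count was 4 without WT HFD library 4, as Plin5 was then not called, where 2501 of 17642 genes were called. On chow edgeR called 0 of the 7, where 0.508% of all tested genes were called. Plin4 alone had an unadjusted p below 0.05 there, and DESeq2 and limma voom called it lower in HuMgat2 mice, as did edgeR without WT HFD library 4. On chow 2 members, Plin4 and Cidec, had groups without overlap, both lower in HuMgat2 mice, where 6.62% of all tested genes had none. The comparisons share groups, so they are not independent of each other.

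**Figure D2:**
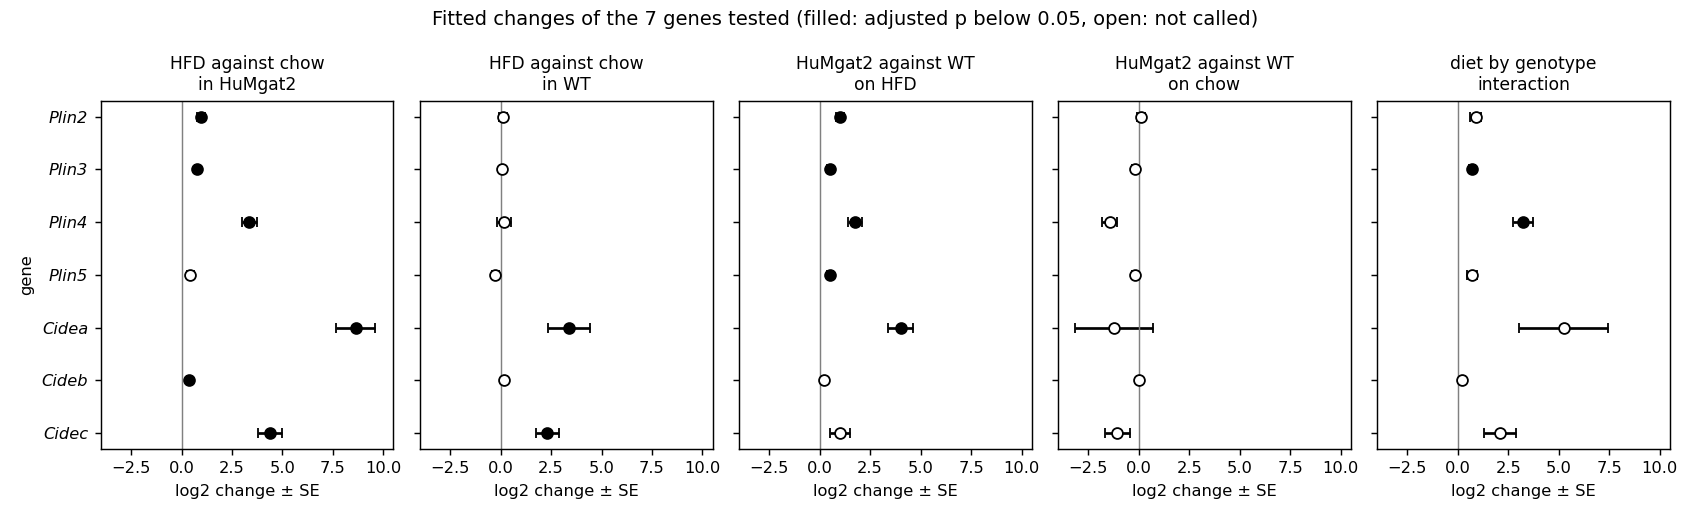
Fitted log2 change with its standard error (horizontal axis) of the 7 tested members in the 4 comparisons and the interaction, filled where the adjusted p was below 0.05. Filled points number 6, 2, 5, 0 and 2 from left to right, and the widest bars are those of Cidea, which had few counts on chow.

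Plin2, the main droplet coat of hepatocytes, was about 2 times as high in HuMgat2 mice on HFD as in any other group. It read 369, 462, 500 and 497 CPM in HuMgat2 HFD libraries 9 to 12, against 191, 241, 195 and 303 CPM in HuMgat2 chow libraries 13 to 16. In WT mice it read 273, 251, 261 and 136 CPM on HFD (libraries 1 to 4) and 230, 176, 246 and 205 CPM on chow (libraries 5 to 8). Every HuMgat2 HFD library was above every other library, and the other 3 groups overlapped. The diet change in HuMgat2 mice was log2 0.97 ± 0.20 (SE, adjusted p = 0.00389, 1.97-fold), and the difference from WT mice on HFD was log2 0.99 ± 0.20 (adjusted p = 0.00386, 1.99-fold; 0.81 without WT HFD library 4). In WT mice the diet change was log2 0.10 with a 95% interval of -0.32 to 0.52 and was not called, and the interaction, log2 0.87 ± 0.28, missed the threshold (adjusted p = 0.0923). That interaction was called in 3 of 22 alternatives: by DESeq2 (adjusted p = 0.0433), by voom (0.0233) and by edgeR without HuMgat2 chow library 16 (0.0496). Without WT HFD library 4 edgeR gave a WT diet change of log2 0.29 (adjusted p = 0.248) and an interaction of 0.69 (0.0662), neither of them called.

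Plin3, which moves from the cytosol onto forming droplets, was likewise highest in HuMgat2 mice on HFD, with smaller differences. Unlike that of Plin2, its lowest mean was in HuMgat2 mice on chow (25.2 CPM). It read 37.9, 42.6, 40.9 and 50.8 CPM in HuMgat2 HFD libraries, against 21.3, 31.2, 25.1 and 23.3 CPM in HuMgat2 chow libraries. WT mice had 31.2, 30.3, 32.7 and 27.9 CPM on HFD and 30.3, 27.3, 31.3 and 27.2 CPM on chow. The HuMgat2 HFD libraries were again above all others, and the WT libraries of both diets overlapped. Plin3 was 1.70-fold higher on HFD in HuMgat2 mice (log2 0.77 ± 0.11, adjusted p = 0.000302) and, on HFD, 1.41-fold higher in HuMgat2 mice than in WT mice (log2 0.49 ± 0.11, adjusted p = 0.00862). The WT diet change was log2 0.07 (95% interval -0.17 to 0.32, not called). The interaction of log2 0.69 ± 0.16 was called (adjusted p = 0.0203), and it stayed below 0.05 in each of the 22 alternatives run for it, the highest being 0.0473.

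Plin5, the perilipin of oxidative tissues, had a diet change that passed the test in neither genotype. It read 19.4, 17.5, 24.8 and 21.5 CPM in HuMgat2 HFD libraries, against 12.6, 17.9, 12.9 and 17.9 CPM in HuMgat2 chow libraries. WT libraries read 14.2, 15.3, 17.2 and 11.4 CPM on HFD and 21.0, 15.7, 18.7 and 14.4 CPM on chow. On HFD the HuMgat2 libraries were above the WT libraries, narrowly at the nearest pair, and every other pair of groups overlapped. The difference between genotypes on HFD was 1.43-fold (log2 0.51 ± 0.16, adjusted p = 0.0411). It was 0.42 with adjusted p = 0.0893 without WT HFD library 4, and it was also not called without HuMgat2 HFD library 9, 11 or 12 or WT HFD library 1 or 2 (log2 0.42 to 0.55, adjusted p 0.0587 to 0.122) or by voom (log2 0.38, adjusted p = 0.0557). In HuMgat2 mice the diet change of log2 0.44 ± 0.16 was not called (adjusted p = 0.0807), though without WT HFD library 4 it was (adjusted p = 0.0459). In WT mice it was log2 -0.26 ± 0.16 (adjusted p = 0.309), and the interaction was log2 0.69 ± 0.23 (adjusted p = 0.0962).

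Plin4, the perilipin with the long repeat region, had the widest range of the 4 tested perilipins as a ratio of highest to lowest library, though in CPM that of Plin2 was wider. It read 103, 105, 160 and 206 CPM in HuMgat2 HFD libraries, against 6.38, 23.1, 12.5 and 12.9 CPM in HuMgat2 chow libraries. The WT libraries had 44.9, 66.0, 35.4 and 21.7 CPM on HFD and 49.6, 36.5, 27.9 and 36.9 CPM on chow. HuMgat2 mice thus held both ends: their HFD libraries were above and their chow libraries, with the highest at 23.1 CPM, mostly below the WT libraries. The HuMgat2 diet change was 10.3-fold (log2 3.37 ± 0.38, adjusted p = 2.61e-05) and the WT diet change log2 0.16 ± 0.34 (95% interval -0.57 to 0.89, not called; -0.15 without WT HFD library 2). The interaction of log2 3.21 ± 0.50 was called (adjusted p = 0.00143), as it was in each of 22 alternatives.

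Both genotype differences enter that interaction. On HFD the Plin4 level of HuMgat2 mice was 3.40-fold that of WT mice (log2 1.76 ± 0.35, adjusted p = 0.00329; 1.56 without WT HFD library 4). On chow it was lower in HuMgat2 mice in every library, at 13.7 ± 6.94 CPM in HuMgat2 and 37.8 ± 8.94 CPM in WT mice (SD, n = 4 each). The edgeR test did not call that difference (log2 -1.44 ± 0.36, adjusted p = 0.102). The call was made by DESeq2 (adjusted p = 0.00504), with no filter on low counts (0.0175), by voom (0.0430), and on leaving out HuMgat2 chow library 14 (0.0245) or WT HFD library 4 (0.0307), and over all 23 alternatives the adjusted p ran from 0.00504 to 0.310. Plin4 shares 17 exon bases with Hdgfl2 on the other strand, which was called in none of the comparisons.

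Plin1, the adipocyte perilipin, was close to absent. It had 1, 1, 0 and 0 counts in HuMgat2 HFD libraries, 0, 0, 1 and 2 in HuMgat2 chow libraries, 0 in each WT HFD library and 1, 0, 0 and 0 in WT chow libraries. The 0 counts of the WT HFD group allow a level of up to 0.0367 CPM (3 counts over the group), and counting error is the only error this limit covers. Plin1 did not pass the filter on low counts and was not tested.

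The make-up of the perilipin coat transcripts, as shares of the summed CPM per kb of Plin1 to Plin5, differed between groups in Plin4 and Plin5, among others. Plin4 made up 12.1 ± 2.67% in HuMgat2 mice on HFD, 2.45 ± 1.08% in HuMgat2 mice on chow, 7.06 ± 2.13% in WT mice on HFD and 6.87 ± 1.61% in WT mice on chow (SD, n = 4 each). Its share was 9.36% to 15.6% in the HuMgat2 HFD libraries and 1.41% to 3.87% in the HuMgat2 chow libraries, which did not overlap, while the WT groups overlapped each other. Plin2 stayed between 71.4% and 84.4% in all 16 libraries. Plin5 made up 5.48 ± 0.743% in HuMgat2 mice on HFD, 8.45 ± 0.519% in HuMgat2 mice on chow, 7.79 ± 1.30% in WT mice on HFD and 9.54 ± 0.928% in WT mice on chow. Its share was 4.74% to 6.27% in the HuMgat2 HFD libraries, below every library of the other groups, of which the lowest held 6.44%. In HuMgat2 mice its share was lower on HFD, where its mean CPM was higher. In WT mice both its share and its mean CPM were lower on HFD. These shares are a description with no test.

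**Figure D3:**
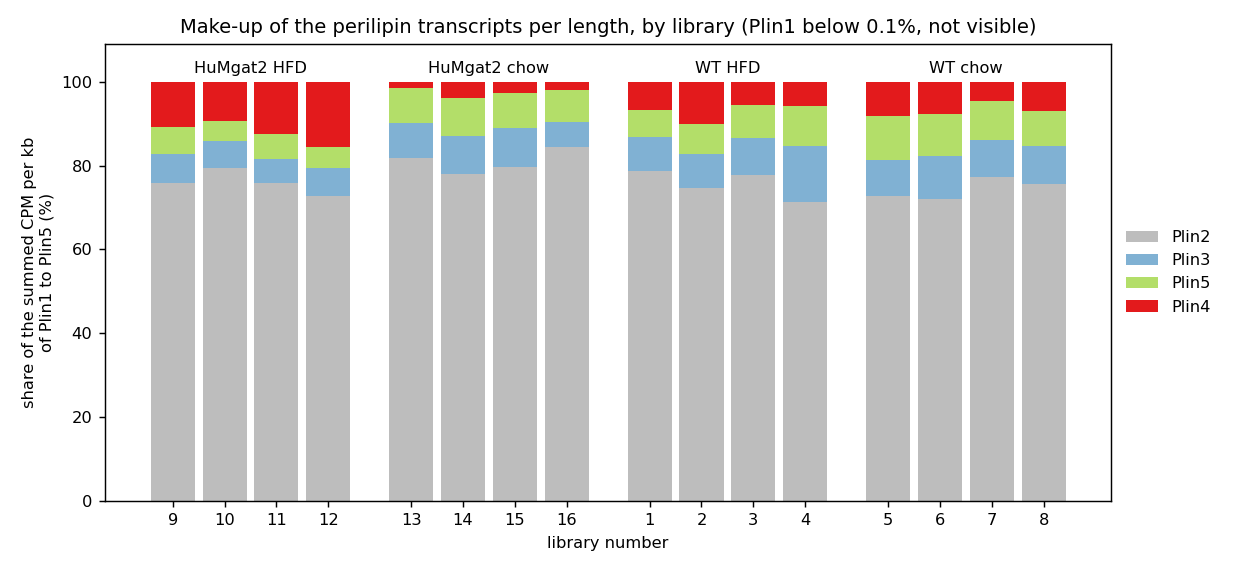
Share of each perilipin in the summed CPM per kb of Plin1 to Plin5 (vertical axis, %) in each of the 16 libraries (horizontal axis, grouped), stacked to 100%. The top segment, Plin4, is 9.36% to 15.6% in the HuMgat2 HFD libraries and 1.41% to 3.87% in the HuMgat2 chow libraries.

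Cidec, the CIDE protein that drives droplet growth in white adipocytes, rose with HFD in both genotypes. It read 20.2, 46.3, 29.7 and 54.4 CPM in HuMgat2 HFD libraries, against 1.10, 1.93, 2.31 and 1.73 CPM in HuMgat2 chow libraries. WT libraries had 13.4, 31.0, 27.6 and 1.35 CPM on HFD and 4.20, 4.58, 3.17 and 2.96 CPM on chow. In HuMgat2 mice the diets were far apart, while in WT mice 3 HFD libraries were above and library 4 was below all chow libraries. The HuMgat2 change was 21.0-fold (log2 4.39 ± 0.61, adjusted p = 0.000164). The WT change was 4.99-fold (log2 2.32 ± 0.55, adjusted p = 0.0103), and it was 2.69 with adjusted p = 5.02e-05 without library 4. With only the WT groups in the fit it was not called (log2 2.30, adjusted p = 0.0565). The difference between the diet changes, log2 2.07 ± 0.80, was not called (adjusted p = 0.165), though without WT HFD library 4 it was (1.70, adjusted p = 0.0392).

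Between genotypes Cidec was called on neither diet. On HFD the difference was log2 1.02 ± 0.50 (95% interval -0.04 to 2.07, adjusted p = 0.176; 0.65 without WT HFD library 4). On chow all HuMgat2 libraries were below all WT libraries, at 1.77 ± 0.507 CPM in HuMgat2 and 3.73 ± 0.783 CPM in WT mice, yet the difference of log2 -1.06 ± 0.63 was not called (adjusted p = 0.576).

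Cidea, the CIDE protein of brown adipocytes, had 1540 of its 1642 counts in HuMgat2 mice on HFD. It had 110, 516, 357 and 557 counts in HuMgat2 HFD libraries, which is 4.47, 22.8, 15.2 and 24.9 CPM, against 0, 0, 2 and 1 counts in HuMgat2 chow libraries. In WT mice it had 7, 61, 23 and 0 counts on HFD and 2, 5, 0 and 1 on chow. Library 9 had the lowest level of the HuMgat2 HFD group, and it was still above the highest WT HFD library at 2.54 CPM. Over the HuMgat2 groups, 1540 counts on HFD against 3 on chow gave a ratio of 452 after scaling, with a 95% counting interval of 154 to 2192 (log2 8.63 ± 0.99, adjusted p = 3.14e-05). The fitted log2 value was 9.61 without HuMgat2 chow library 15, which held 2 of the 3 chow counts.

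The other Cidea comparisons rest on fewer counts. On HFD the ratio of HuMgat2 to WT counts, 1540 against 91, was 14.9 with a counting interval of 12.0 to 18.6 (log2 4.01 ± 0.63, adjusted p = 0.00059). The log2 value was 3.69 without WT HFD library 4, and it was 5.08 once library 2 of that group was left out, which held 61 of the 91 counts. In WT mice 91 counts on HFD against 8 on chow gave a ratio of 11.8 with a counting interval of 5.76 to 28.3 (log2 3.39 ± 1.04, adjusted p = 0.0374). That call was lost without HFD library 2 (log2 2.32, adjusted p = 0.176) or 3 (3.45, 0.0528), without chow library 5 (3.39, 0.0840), 6 (4.29, 0.0503), 7 (2.98, 0.0948) or 8 (3.20, 0.0853), and by voom (3.53, 0.163). With only the WT groups in the fit Cidea did not pass the filter on low counts and was not tested. The interaction of log2 5.23 ± 2.19 was not called (adjusted p = 0.206). The gene span of B430212C06Rik overlaps Cidea on the other strand with 0 shared exon bases.

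Cidec and Cidea differed in their balance between the genotypes on HFD. The ratio of Cidec to Cidea counts was 1.96 to 4.53 in the 4 HuMgat2 HFD libraries and 12.2 to 39.1 in the 3 WT HFD libraries with any Cidea count, so the ranges did not overlap. On chow, with at most 5 Cidea counts per library, the ratio carries little information. WT HFD libraries 2 and 3 had 31.0 and 27.6 CPM of Cidec with 2.54 and 0.931 CPM of Cidea, whereas HuMgat2 HFD library 11 had 29.7 CPM of Cidec with 15.2 CPM of Cidea. This comparison was chosen after the values were seen and was not tested.

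**Figure D4:**
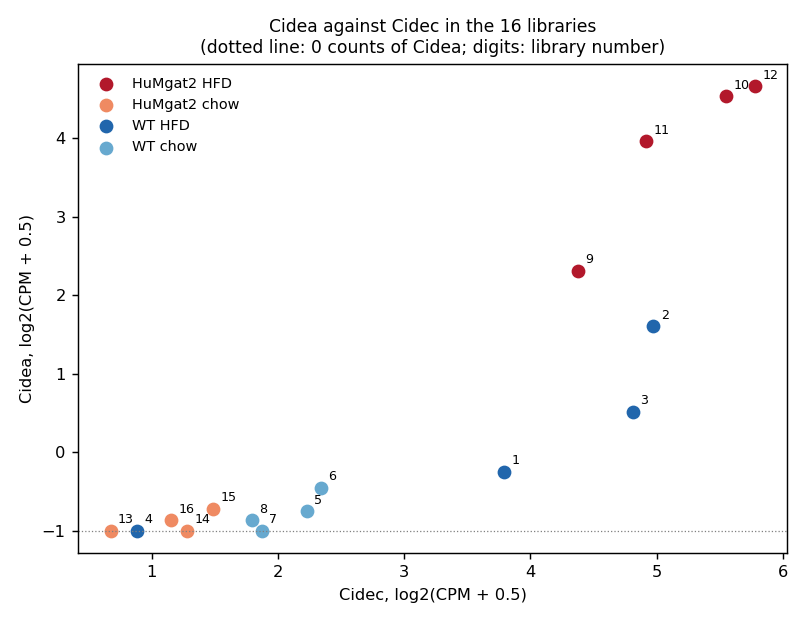
Cidea against Cidec in the 16 libraries, both as log2(CPM + 0.5), coloured by group and numbered by library; the dotted line is 0 counts of Cidea. At Cidec levels of 20.2 to 31.0 CPM the HuMgat2 HFD libraries 9 and 11 have more Cidea (4.47 and 15.2 CPM) than the WT HFD libraries 2 and 3 (2.54 and 0.931 CPM), and WT HFD library 4 lies among the chow libraries.

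Cideb, the CIDE protein of hepatocytes, had the log2 value nearest 0 of the 3 CIDE genes in each comparison. It read 23.8, 24.1, 28.0 and 28.4 CPM in HuMgat2 HFD libraries, against 15.9, 22.0, 19.7 and 22.5 CPM in HuMgat2 chow libraries. The WT libraries read 25.1, 23.8, 21.4 and 20.2 CPM on HFD and 20.4, 18.3, 22.6 and 18.7 CPM on chow. The HuMgat2 diets stood apart and the WT diets overlapped. The HuMgat2 diet change was 1.30-fold (log2 0.38 ± 0.12, adjusted p = 0.0374). It was called in 14 of 23 alternatives. It was lost without HuMgat2 chow library 13 (0.28, adjusted p = 0.108), without HuMgat2 HFD library 10, 11 or 12, HuMgat2 chow library 15 or WT chow library 5 or 6 (adjusted p up to 0.111), with no filter (0.0676) and with only the HuMgat2 groups in the fit (0.0566). No other comparison was called for Cideb, the WT diet change being log2 0.18 (95% interval -0.06 to 0.43) and the difference between genotypes on HFD log2 0.20 (-0.04 to 0.44). Nop9, whose exons cover most of Cideb on the other strand, was called in none of the comparisons, and reads from the bases that both genes cover could not be assigned to either.

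Beyond the 2 families, 26 other genes of droplet assembly, lipolysis and droplet enzymes were tested, of 28 listed. In HuMgat2 mice 5 rose on HFD and 1 fell, where 14.0% of all tested genes were called, with a median log2 change of 0.15 against -0.01 over all tested genes. The risers were Mgll, which cleaves monoacylglycerol (2.38-fold, adjusted p = 0.000373), Fitm1 (2.72-fold) and Fitm2 (1.91-fold), which help droplets leave the endoplasmic reticulum, Pnpla3 (4.45-fold), a droplet enzyme of the patatin family, and Hilpda (2.63-fold), an inhibitor of the lipase Pnpla2. Faf2, which recruits the ubiquitin machinery to droplets, fell 1.23-fold. In WT mice, where 15.1% of all tested genes were called, 5 also rose and 1 fell: the lipase Lipe (2.19-fold, adjusted p = 0.0005), Pnpla3 (5.25-fold), the lipase inhibitor G0s2 (2.07-fold), Mgll (1.55-fold) and the lipase Pnpla2 (1.28-fold) rose, and Faf2 fell 1.22-fold. Without WT HFD library 4 the WT count was 9 higher and 1 lower, where 2593 of 17642 genes were called. The added WT risers were Fitm1 (log2 0.66, edgeR adjusted p = 0.0393), Fitm2 (0.53, 0.0301), Hsd17b11 (0.47, 0.0200) and Pnpla7 (0.59, 0.000642). The rise of Fitm1 and Fitm2 was thus not limited to HuMgat2 mice in that setting. A difference between the diet changes was called for 0 of the 26 by edgeR, with 4 at an unadjusted p below 0.05 (18.1% of all tested genes were), and for 1 each by DESeq2 and voom. Such a difference was called for 2 without WT HFD library 4, Lipe (log2 -0.99) and Pnpla7 (-0.53), both with the lower change in HuMgat2 mice. Over all genes DESeq2 called 1240 and voom 1391 of 17318, and edgeR without that library 1129 of 17642.

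Between the genotypes on HFD, 2 of these genes were higher and 3 lower in HuMgat2 than in WT livers, where 14.8% of all tested genes were called. The counts were 1 higher and 4 lower without WT HFD library 4, when Pnpla7 was called lower (log2 -0.49, adjusted p = 0.00239), and 5 higher and 6 lower by voom. Over all genes these settings called 2501 of 17642 and 4323 of 17318. Acsl3, an acyl-CoA synthetase of growing droplets, was 1.56-fold higher (adjusted p = 0.0296; 0.0551 without WT HFD library 4), and Bscl2, which encodes seipin at the droplet neck, was 1.28-fold higher. Lipe, at 9.85 ± 0.596 CPM in HuMgat2 and 16.9 ± 4.04 CPM in WT livers, was 1.72-fold lower (adjusted p = 0.00516). Dgat2, which makes triglyceride at droplets, was 1.55-fold lower, and Vps13a, a lipid carrier at membrane contacts, was 1.36-fold lower. On chow 0 of the 26 were called between the genotypes by edgeR, DESeq2 or voom or in any other alternative, and 3 had an unadjusted p below 0.05, as 10.8% of all tested genes did.

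**Figure D5:**
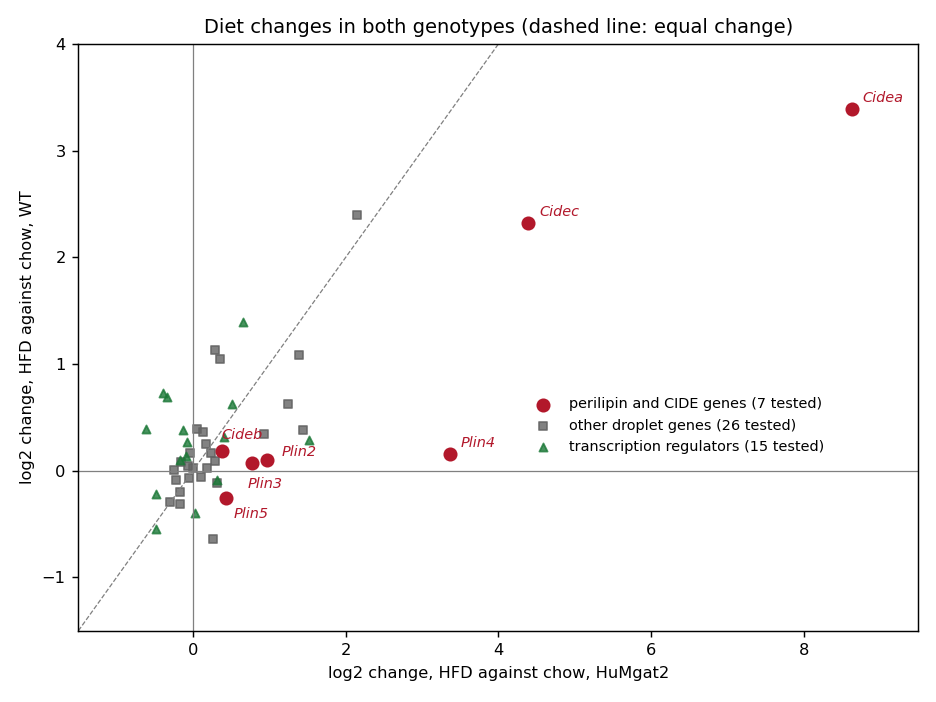
Log2 change of HFD against chow in HuMgat2 mice (horizontal axis) and in WT mice (vertical axis) for the 7 tested members, 26 other droplet genes and 15 transcription regulators; on the dashed line both changes are equal. Cidea, Cidec and Plin4 lie far to the right of the line, at 8.63, 4.39 and 3.37 in HuMgat2 mice against 3.39, 2.32 and 0.16 in WT mice.

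Of 15 transcription regulators known to act on lipid genes, 2 rose and 1 fell on HFD in HuMgat2 mice, and 3 rose and 1 fell in WT mice. Over all tested genes 14.0% were called in HuMgat2 and 15.1% in WT mice. Pparg, the nuclear receptor whose known targets include Plin and CIDE genes, read 22.8 ± 3.74 CPM in HuMgat2 mice on HFD and 7.92 ± 0.709 CPM on chow (2.87-fold, adjusted p = 0.00116), without overlap. In WT mice it read 15.5 ± 7.34 CPM on HFD and 12.8 ± 0.546 CPM on chow and was not called (log2 0.29 ± 0.26), and neither was the interaction (log2 1.23 ± 0.37, adjusted p = 0.0694). On leaving out WT HFD library 4, the lowest of its group for Pparg, the WT change was called (log2 0.56, adjusted p = 0.0111) and so was the interaction (log2 0.97, adjusted p = 0.00504). Between the genotypes on HFD Pparg was not called with that library (log2 0.54 ± 0.26, adjusted p = 0.161) or without it (0.28, 0.191). Esrra rose 1.33-fold and Hnf4a fell 1.40-fold in HuMgat2 mice. In WT mice Srebf1, the factor of lipogenic genes, rose 2.63-fold (adjusted p = 0.000811), Xbp1 rose 1.66-fold, Ppara rose 1.54-fold and Hnf4a fell 1.46-fold. Srebf1 (log2 0.66, edgeR adjusted p = 0.0574) and Ppara (0.51, 0.0514) missed the threshold in HuMgat2 mice. Both were called higher there without WT HFD library 4 (adjusted p = 0.0110 and 0.00735). On HFD Srebf1 was 1.84-fold, Xbp1 1.79-fold and the coactivator Ppargc1b 1.64-fold lower in HuMgat2 than in WT livers. Xbp1 was the 1 regulator called in the interaction (log2 -1.12 ± 0.23, adjusted p = 0.0113), where 4.87% of all tested genes were called. There 4 regulators were called without WT HFD library 4, namely Pparg, Xbp1 (log2 -0.96, adjusted p = 0.0085), Ppargc1b (-1.22, 0.00223) and Srebf1 (-0.92, 0.0336), while DESeq2 called 3 and voom 5. Without WT HFD library 4 the regulators called were 4 higher and 2 lower in HuMgat2 mice and 5 higher and 1 lower in WT mice, and on chow 1, Pparg, was lower in HuMgat2 than in WT livers (log2 -0.69, adjusted p = 0.0145). Over all genes that setting called 3394 of 17642 for diet in HuMgat2 mice, 2593 in WT mice and 1129 in the interaction. In the interaction DESeq2 called 1240 and voom 1391 of 17318 genes. With all libraries edgeR, DESeq2 and voom called 0 regulators on chow, and 1 had an unadjusted p below 0.05.

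Plin1, Plin4, Cidea and Cidec are also adipocyte genes, so adipocyte markers are given beside them. Of 10 adipocyte markers 4 passed the filter. Adipoq and Lep had 0 to 1 counts and Ucp1 had 0 counts in each of the 16 libraries. The summed level of the 10 was 12.8 to 19.7 CPM in HuMgat2 mice on HFD, 4.68 to 7.93 CPM in HuMgat2 mice on chow, 8.73 to 141 CPM in WT mice on HFD and 3.85 to 7.72 CPM in WT mice on chow. The high WT sums came from Cfd, which encodes the adipokine adipsin and read 83.1, 130, 78.8 and 0.159 CPM in WT HFD libraries 1 to 4, and 3.01, 6.81, 6.96 and 4.07 CPM in HuMgat2 HFD libraries. Cfd was lower in HuMgat2 than in WT mice on HFD (log2 -3.81 ± 0.78, adjusted p = 0.00396), the 1 adipocyte marker edgeR called there, while voom called 1 higher and 1 lower. Over all genes edgeR called 2558 of 17318 in that comparison and voom 4323. With diet, 2 of the 4 tested markers rose on HFD in HuMgat2 mice (Cfd and Fabp4) and 3 in WT mice (Cfd, Trarg1 and Fabp4). Over all tested genes 7.56% and 8.37% were called higher. Cfd, with at most 9 counts per library on chow, rose 50.5-fold in HuMgat2 mice and 266-fold in WT mice, and Trarg1 rose 2.81-fold in WT mice. Fabp4, a fatty acid carrier of adipocytes and macrophages, rose 2.42-fold in HuMgat2 mice and 2.12-fold in WT mice on HFD. On HFD Fabp4 read 6.50 ± 0.347 CPM in HuMgat2 and 3.52 ± 1.98 CPM in WT mice (SD, n = 4 each), without overlap, and edgeR did not call the difference (log2 0.85 ± 0.33, adjusted p = 0.0937). The part of adipocytes in the levels of the droplet coat genes was not tested.

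Markers of the other liver cells moved as well. The summed level of 8 stellate cell markers was 424 to 483 CPM in HuMgat2 mice on HFD, 213 to 342 in HuMgat2 mice on chow, 307 to 390 in WT mice on HFD and 228 to 298 in WT mice on chow. Of the 8, 5 rose on HFD in HuMgat2 mice and 1 in WT mice, where 7.56% and 8.37% of all tested genes were called higher. Between the genotypes on HFD 3 were higher in HuMgat2 mice, where 7.21% of all tested genes were called higher. The sum of 8 macrophage markers was 185 to 221 CPM in HuMgat2 mice on HFD, 133 to 173 in HuMgat2 mice on chow, 165 to 555 in WT mice on HFD, with the top in library 4, and 111 to 200 in WT mice on chow. On HFD 2 of the 8 rose in HuMgat2 mice and 6 in WT mice, where 7.56% and 8.37% of all tested genes were called higher. Without WT HFD library 4 there were 4 in each, where 1881 and 1356 of 17642 genes were called higher. Between the genotypes on HFD edgeR called 0 of the 8. There 2 were higher in HuMgat2 mice without WT HFD library 4 and by voom, where 1303 of 17642 and 2176 of 17318 genes were called higher. The sum of 8 hepatocyte markers was 71249 to 83213 CPM in HuMgat2 mice on HFD, 78135 to 102297 in HuMgat2 mice on chow, 44355 to 79975 in WT mice on HFD and 86405 to 101862 in WT mice on chow. On HFD 3 of the 8 fell in HuMgat2 mice and 0 in WT mice by edgeR. Over all tested genes 14.0% and 15.1% were called in either direction. In WT mice 2 had an unadjusted p below 0.05, as 29.7% of all tested genes did, while DESeq2 called 2 and voom 1. Over all genes DESeq2 called 3141 and voom 3944 of 17318 there. Between the genotypes on HFD 3 were lower in HuMgat2 mice, where 14.8% of all tested genes were called in either direction. The part of these shifts in the changes of the droplet coat genes was not tested.

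The genes whose levels followed each member most closely over the 16 libraries were found by Pearson's r of log2(CPM + 0.5) among the 14118 genes of mean at least 1 CPM. These values describe 16 libraries that fall into 4 groups and share their scaling, and they carry no test. Kdsr, an enzyme of ceramide synthesis, was nearest to both Plin3 (r = 0.96) and Plin4 (r = 0.94), and Plin3 was itself the next nearest to Plin4 (r = 0.93), followed by Ermp1 (0.92). The others near Plin3 were Gm4735 (0.94) and the liver phosphofructokinase Pfkl (0.93). Plin2 was followed most closely by Abhd4 (0.96), Ddb1 (0.96) and Fez2 (0.96), and Plin5 by Acadvl (0.91), the very-long-chain acyl-CoA dehydrogenase of mitochondria, Slc27a4 (0.89), a fatty acid transport protein, and Pex5 (0.87), the import receptor of peroxisomes. Cidea was followed by Zfp423 (0.97), Lgals1 (0.97) and A4gnt (0.97), Cidec by Pnldc1 (0.96), Paqr7 (0.96) and Osbpl3 (0.96), and Cideb by Ttc27 (0.93), Gm10359 (0.93) and Gm12070 (0.93). Counts of the genes with Gm names can hold reads of near-identical copies and are uncertain. Like Cidea, A4gnt was near 0 outside 1 group: it read 18.1 ± 11.0 CPM in HuMgat2 mice on HFD, 0.0936 ± 0.0608 in HuMgat2 mice on chow, 0.441 ± 0.509 in WT mice on HFD and 0.0486 ± 0.0698 in WT mice on chow.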

How the data were processed

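Per the labels' protocols, RNA from 15 mg of liver with an integrity number above 7 was depleted of ribosomal RNA and made into stranded libraries. The authors deposited whole-number counts of read pairs per gene name, made with featureCounts 2.0.1 on Ensembl 103 annotation of GRCm39 without a strand setting, per the file headers; STAR 2.7 and DESeq2 1.26.0 are in the submitters' processing notes. The 64 records are 4 per library, so each of the 16 libraries was used once. Counts were fitted with edgeR 4.0.16 in R 4.3.3 (quasi-likelihood F test, TMM, filterByExpr, 1 fit of the 4 group means, two-sided), and Benjamini-Hochberg adjustment ran over the 17318 genes tested at adjusted p below 0.05; the SE is the log2 value over the square root of F, and 95% intervals use the degrees of freedom of that test. The script was tested on simulated data. Each library was left out in turn, and further alternatives were limma 3.58.1 voom with sample quality weights, DESeq2 1.42.0, edgeR with size factors from DESeq2, a fit of the compared groups alone, a filter at a mean of 1 CPM or none, and removal of mitochondrial, ribosomal RNA and hemoglobin genes. Intervals on count ratios cover counting error only. Named genes are the 8 members, up to 6 called genes per list and comparison, the 3 genes most like each member, genes overlapping a member and Mogat2. The members and lists were chosen with earlier results of these data known.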

Additional observations from a re-analysis of the deposited data

Results flagged for a closer look

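In WT mice on HFD, Plin2 in library 4 read 135.9 CPM, against 251 to 273 CPM in libraries 1 to 3, a gap large enough to set it apart from its group by Dixon's criterion. It was the 1 such value among 28 sets of 4 libraries examined, where chance gives about 1 in 20. The diet change of Plin3 differed between the genotypes by log2 0.69, and that of Plin4 by log2 3.21, both larger in HuMgat2 than in WT mice by the interaction test of edgeR.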

How the results depend on the processing

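Of the 7 members, 6 were called for diet in HuMgat2 mice and 5 between genotypes on HFD, and over the alternatives these counts were 5 to 7 and 4 to 5. The count for diet in WT mice, 2, was 0 with only the WT groups in the fit, 1 with voom, and 1 to 2 with a library left out; in that first setting Cidea did not pass the filter. The count between genotypes on chow, 0, was 1 with DESeq2, with no filter and with voom, and 0 to 1 with a library left out (1 without HuMgat2 chow library 14 or WT HFD library 4). The interaction count, 2, was 4 with DESeq2. In the other settings these counts stayed within 1.5 times of their own value, and the per-length order of the genes by their means was the same in TPM in all 4 groups. In TPM, however, Cideb overlapped Plin5 on chow. The lowest Cideb and highest Plin5 libraries were 11.8 and 15.1 in HuMgat2 mice and 17.6 and 18.2 in WT mice. With Cideb divided by its unshared bases, an alternative added after seeing the data, 11 neighbours in the CPM per kb order did not overlap, against 12 with its full length. The sign turned, in values that were never called, for Plin4 in WT mice on HFD against chow (-0.15 without WT HFD library 2 to 0.37 without library 4 of that group), for Plin2 between genotypes on chow (-0.036 without HuMgat2 chow library 16 to 0.20 without library 13), and for Cideb between genotypes on chow: -0.0018 at a mean of at least 1 CPM, -0.020 with voom, and -0.05 to 0.10 with a library left out (-0.040 without HuMgat2 chow library 14, -0.053 without 16, -0.026 without WT chow library 6, -0.024 without 8). Of the values for single genes, 753 kept their call, 24 lost it and 11 gained it. The cause of these moves was not tested.

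Over all genes, calls moved by over 1.5 times as follows. The WT diet count of 2617 was 1452 with only those groups, where 45.1% were higher against 55.4%, and it was 3944 with voom and 1673 without WT chow library 5. The genotype count on HFD of 2558 was 4323 with voom and 1585 without HuMgat2 HFD library 10. The genotype count on chow of 88 was 238 with DESeq2, 135 with voom, 58 without HuMgat2 chow library 13, 53 on leaving out WT chow library 5 and 204 on leaving out WT HFD library 4. The interaction count of 844 was 1391 with voom, 551 without HuMgat2 HFD library 10, 550 without HuMgat2 chow library 15 and 529 without WT chow library 5. Fits of the gene lists in the alternatives were added after seeing the data. No paired analysis was possible because the library numbers do not repeat across the groups. With 4 libraries per group, low counts limit Plin1 on every diet and Cidea on chow, and counting without strand limits Cideb.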
